A study of Mus musculus with 16 samples.

Results

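Tfap2a, Tfap2b, Foxd3, Sox9, Snai2, Twist1, Prrx1, Msx1, Zeb1 and Zeb2 are 10 transcription factor genes of the neural crest and of mesenchyme. They were chosen by name, and all 10 were found among the 21938 protein-coding genes of the GENCODE mouse annotation used here. Their peaks were examined in mouse clear cell sarcoma (CCS), a soft tissue tumour driven by EWSR1::ATF1 (EA1). In EA1, sequence from EWSR1 is fused to ATF1, an ATF/CREB family transcription factor, whose domain for binding DNA is kept. The series holds 16 samples of chromatin from whole tumours, all of the genotype EWSR1::ATF1. There were 4 anti-V5 samples (group V5), 4 of RNA polymerase II (RNAPOL2, group pol2), 4 of H3K27ac (group H3k27ac) and 4 of input chromatin (group Input). The mice were on a mixed background of which C57Bl/6 was a part, and they carried a human, V5-tagged EA1 cDNA under the Rosa26 promoter, which TATCre protein injected into the hindlimb at 4 weeks of age released for expression. No normal tissue and no tumour without the fusion was compared, and the age of each animal at tumour collection is not given in the sources used here. A V5 peak locates the tagged fusion, an RNAPOL2 peak RNA polymerase II, and an H3K27ac peak acetylated histone H3 at active promoters and enhancers. The study describes its RNAPOL2 target as the phosphorylated form of the polymerase, so total polymerase was not measured.

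The neural crest is a transient population of the vertebrate embryo that leaves the dorsal neural tube and gives rise to melanocytes, Schwann cells, peripheral neurons and much of the facial mesenchyme. Factors of the TFAP2 and MSX families act at the neural plate border, FOXD3 and SOX9 specify crest cells, and SNAI2, TWIST1, ZEB1 and ZEB2 drive the loss of epithelial junctions that lets cells migrate. PRRX1, TWIST1 and MSX1 also act in limb and facial mesenchyme, and CCS is known for expressing melanocytic genes that belong to a crest lineage.

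The data are 1 peak list for each of the 3 antibodies, with no values per sample, so there is no spread between tumours and no difference was tested. The study names an approximate sequencing depth common to its libraries, but the lists do not show what any sample reached. The V5 list held 10665 peaks, the RNAPOL2 list 20375 and the H3K27ac list 27552. The study counts more EA1 binding sites in these tumours than the V5 list used here holds, so that each statement of no V5 peak refers to this list alone. Each peak carries a score from the authors whose scale is not stated, and scores were therefore ranked only within a list, from the highest. The median scores of the lists were 230 for V5, 246 for RNAPOL2 and 212 for H3K27ac. In chromatin of whole tumours, a site without a peak and a site that is occupied in a minority of the cells cannot be told apart.

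A promoter peak was a peak that touched the window of 3 kb on either side of any annotated transcription start site (TSS) of a gene. V5 promoter peaks were listed at 3 of the 10 genes, Sox9, Twist1 and Prrx1, whereas 16.6% of all coding genes had 1. RNAPOL2 promoter peaks were listed at 8 of the 10 genes, against 53.5% of all coding genes. H3K27ac promoter peaks were listed at the same 8 genes, against 58.6%. The genes without RNAPOL2 or H3K27ac were Tfap2b and Foxd3. Sox9, Twist1 and Prrx1 thus had promoter peaks in all 3 lists, a state found at 15.9% of coding genes. Tfap2a, Snai2, Msx1, Zeb1 and Zeb2, which are 5 of the 10, had promoter peaks of RNAPOL2 and H3K27ac without V5, against 36.3% of coding genes. Tfap2b and Foxd3, 2 of the 10, had no promoter peak in any list, against 39.9%. The V5 promoter peaks of Sox9, Twist1 and Prrx1 all lay in the lower 50% of the V5 list by score, and with the upper 50% alone the count of genes with a V5 promoter peak was 0.

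**Figure D1:**
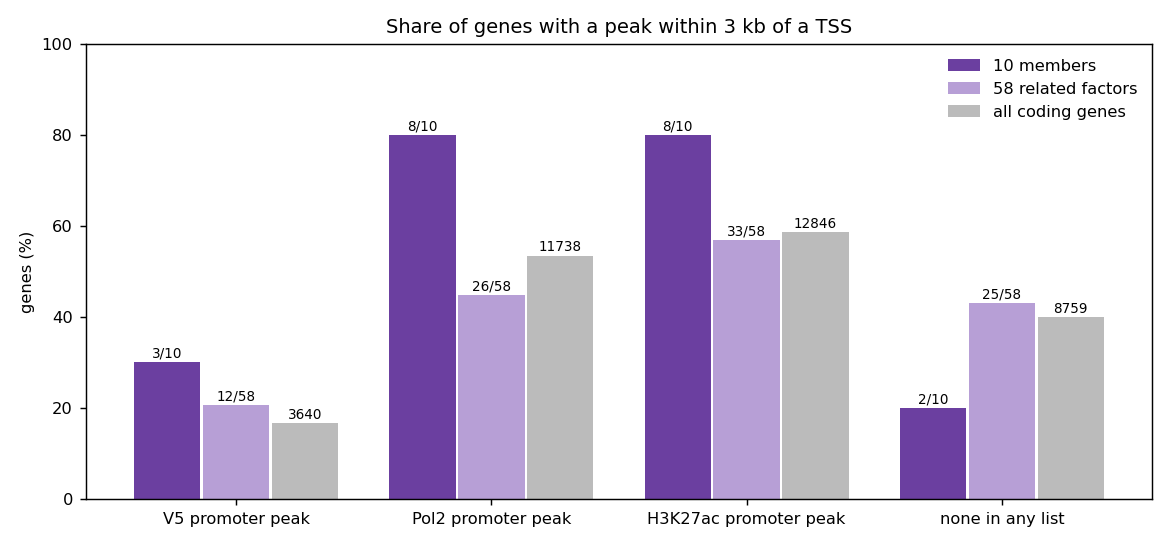
Share of genes in percent (vertical axis) with a promoter peak in each list or in none, for the 10 genes, for 58 related transcription factor genes and for all 21938 coding genes; the numbers above the bars are gene counts. RNAPOL2 (Pol2) and H3K27ac promoter peaks were listed at 8 of the 10 genes, and V5 promoter peaks at 3 of the 10.

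Windows of 50 kb around the TSSs gave the same division of genes. V5 peaks within 50 kb were found at 3 of the 10 genes (41.3% of coding genes), RNAPOL2 peaks at 8 (69.9%) and H3K27ac peaks at 8 (75.1%). Peaks that touched the gene body itself were found for V5 at 3 of the 10 genes (20% of coding genes), for RNAPOL2 at 8 (53.7%) and for H3K27ac at 8 (59.1%). In each case the 3 genes were Sox9, Twist1 and Prrx1, and the 2 genes without any peak were Tfap2b and Foxd3. The 10 genes had 9 V5 peaks, 25 RNAPOL2 peaks and 18 H3K27ac peaks within 50 kb. Prrx1 held 6 of the V5 peaks, Sox9 held 2 and Twist1 held 1.

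**Figure D2:**
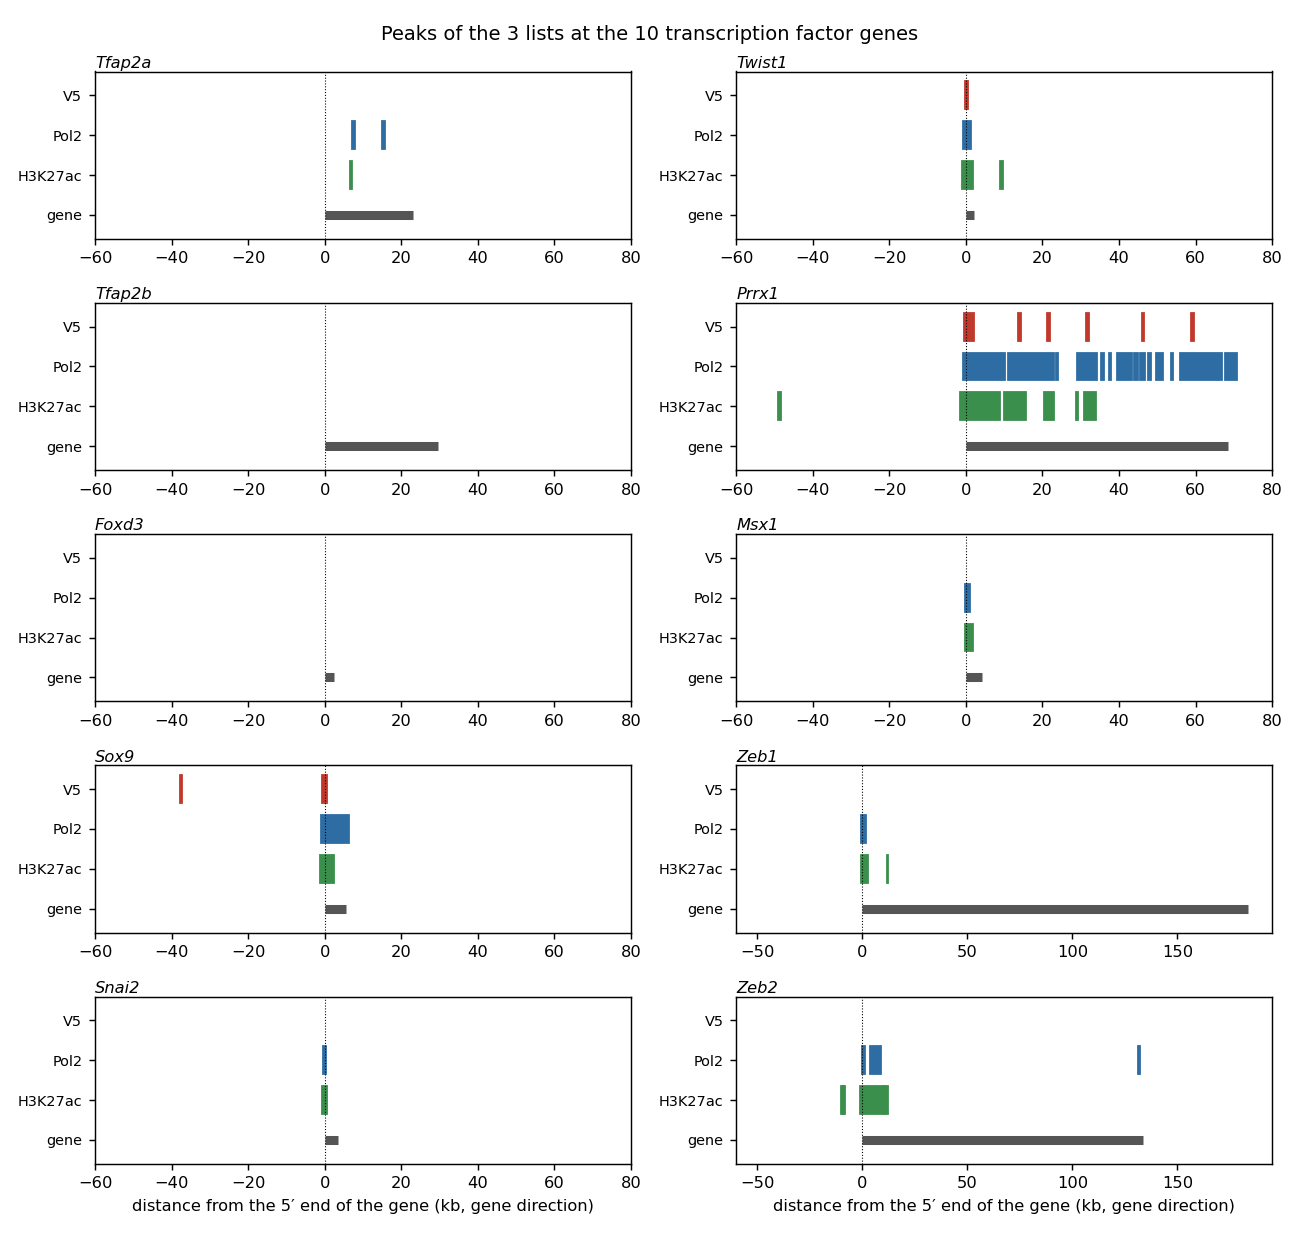
Peaks of V5, RNAPOL2 (Pol2) and H3K27ac at each of the 10 genes, drawn at their distance in kb from the 5′ end of the gene (horizontal axis, gene direction; each peak is outlined so that narrow peaks remain visible, and the scale is wider for Zeb1 and Zeb2). The panels of Tfap2b and Foxd3 are empty, those of Tfap2a, Snai2, Msx1, Zeb1 and Zeb2 hold no V5 peak, and Prrx1 has 6 V5 peaks along its body.

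Among the factors of the neural plate border, Tfap2a and Tfap2b, which encode AP-2 proteins, differed. Tfap2a (chr13:40715302-40738376, minus strand, mm10 here and below) had no peak of any list within 3 kb of its 5′ end. Its RNAPOL2 promoter peak (chr13:40730481-40731300) lay 38 bp from an internal TSS and had a score of 71, rank 14935 of 20375. Its H3K27ac promoter peak (chr13:40731151-40731880) overlapped another internal TSS and had a score of 91, rank 19760 of 27552. Both peaks stood in the lower part of their lists, and counting the 5′ end alone removed Tfap2a from the genes with RNAPOL2 and H3K27ac promoter peaks. TSSs of the annotated genes Gm26688 and Gm47067 lie in its promoter windows. Both promoter peaks overlapped Gm26688 and cannot be assigned to Tfap2a alone. A stronger RNAPOL2 peak of Tfap2a (score 541, rank 7577) lay 15.4 kb into the gene, over exons of Tfap2a and of the annotated transcript Gm47061, and reads of the 2 genes cannot be separated in the list. The nearest V5 peak was 122 kb from a Tfap2a TSS and had a score of 282.

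Tfap2b (chr1:19208914-19238576, plus strand) lay in a region with few peaks. The nearest V5 peak was 710 kb away (score 428, rank 2964), the nearest H3K27ac peak 1640 kb away (score 110), and the nearest RNAPOL2 peak 1680 kb away, at the promoter of Paqr8. Tfap2d, its neighbouring paralogue at 102 kb, had no promoter peak in any list either.

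Msx1 (chr5:37820485-37824583, minus strand), a homeobox gene of the border and of limb mesenchyme, had the highest RNAPOL2 promoter score of the 10 genes. Its RNAPOL2 peak (chr5:37823401-37824920) had a score of 2432, rank 1251 of 20375, the upper 6.14% of the list. The H3K27ac peak at the same TSS had a score of 992, rank 5231 of 27552. No V5 peak lay within 50 kb of Msx1. The nearest V5 peak began 69.7 kb from the closest TSS (chr5:37753101-37754840, score 777, rank 1652 of 10665), overlapped an H3K27ac peak, and was closer to the TSS of Cytl1, at 15.8 kb.

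Of the crest specifiers, Foxd3 (chr4:99656299-99658622, plus strand), a forkhead gene of early crest cells, had no peak within 50 kb in any list. Its nearest RNAPOL2 and H3K27ac peaks, at 58.9 kb and 58.7 kb, overlapped the TSS of Alg6. The nearest V5 peak was 163 kb away, with a score of 680 (rank 1896). The 250 bases before the Foxd3 TSS are shown because they hold the canonical ATF/CREB motif TGACGTCA, in capitals, without a listed V5 peak. They are the first part of the RefSeq promoter (GRCm38.p6) and lie at chr4:99656049-99656298, plus strand.
Foxd3 upstream: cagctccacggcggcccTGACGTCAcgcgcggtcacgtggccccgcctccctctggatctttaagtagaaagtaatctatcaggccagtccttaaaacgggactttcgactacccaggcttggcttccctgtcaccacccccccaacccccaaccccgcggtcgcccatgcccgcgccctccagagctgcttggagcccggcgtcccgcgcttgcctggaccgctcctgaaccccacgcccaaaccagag
TGACGTCA is its own reverse complement and was found in 1.79% of the 32851 mouse promoters of the RefSeq-derived table (250 bases before to 50 after each start), searched on both strands. The table held 11 promoters of 7 of the 10 genes, and the Foxd3 promoter was the only 1 of these 11 with the motif.

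Sox9 (chr11:112782224-112787760, plus strand) encodes an HMG-box factor of crest and cartilage cells. Its V5 promoter peak (chr11:112781601-112782770) covered the TSS and had a score of 94, rank 8778 of 10665. The RNAPOL2 peak (chr11:112781321-112788490) was 7170 bp wide, in the upper 1.80% of the list by width, and covered 100% of the gene body with a score of 2247, rank 1454 of 20375. The H3K27ac peak (chr11:112780981-112784780) had a score of 1508, rank 3303 of 27552. RNAPOL2 and H3K27ac at Sox9 therefore stood in the upper 7.14% and the upper 12% of their lists, and V5 at the same TSS within the lower 20%. The lists hold promoter and distal peaks together. Over all coding genes with a promoter peak, the median of the highest promoter score was 912 for RNAPOL2, 863 for H3K27ac and 196 for V5. Among those genes Sox9 stood at 14.1%, 28.8% and 74.1%, in the same order. The TSS of the noncoding gene BC006965 lies in the same window, so that the promoter peaks cannot be assigned to Sox9 alone.

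The other V5 peak of Sox9 lay 37.6 kb upstream (chr11:112744281-112744940), within the span of BC006965, with a score of 376, rank 3353 of 10665. It overlapped no RNAPOL2 and no H3K27ac peak, and its nearest coding TSS was that of Sox9. It held strings of TGA repeats, here more than 4 units of TGA or its complement TCA that follow each other with 5 bp or fewer between them, the rule in the methods of the study. A figure legend of the study defines them otherwise, as at least 4 units with gaps of at most 2 bp, and by that rule 2 of the 9 V5 peaks at the 10 genes held a string, against 7.14% of all V5 peaks. The 200 bases that hold them are shown (chr11:112744460-112744659, plus strand), with the units of the 2 strings, of 5 and 7 units, in capitals.
Sox9 distal V5 peak: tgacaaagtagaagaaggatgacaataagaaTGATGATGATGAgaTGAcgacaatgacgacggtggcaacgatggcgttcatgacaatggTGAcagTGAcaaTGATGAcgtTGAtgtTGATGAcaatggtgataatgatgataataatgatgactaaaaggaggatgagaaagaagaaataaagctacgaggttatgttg
Such strings were present in 10.2% of all V5 peaks, and in 1.83% of the RefSeq promoters. Strings of 1 unit alone, as both of these are, were present in 2.64% of V5 peaks. V5 peaks had a median width of 710 bp, above the length of the RefSeq promoters. Motif shares in peaks and in promoters were not corrected for length. The promoter peak of Sox9 held instead 2 copies of the AP1 motif TGAGTCA, read on either strand, which was present in 26% of V5 peaks and 5.20% of RefSeq promoters. The 250 bases of the reference genome before the Sox9 TSS (chr11:112781974-112782223, plus strand) contain 1 of them as TGACTCA, in capitals.
Sox9 upstream: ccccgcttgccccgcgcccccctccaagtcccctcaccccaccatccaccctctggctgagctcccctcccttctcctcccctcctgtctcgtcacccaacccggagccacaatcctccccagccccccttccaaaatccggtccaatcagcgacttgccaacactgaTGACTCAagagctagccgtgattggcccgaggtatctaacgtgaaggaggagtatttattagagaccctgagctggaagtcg

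Snai2 (chr16:14705852-14709385, plus strand) encodes a zinc finger repressor of Cdh1 that marks migrating crest. Its RNAPOL2 peak (chr16:14705421-14706190) had a score of 543, rank 7508 of 20375, and its H3K27ac peak a score of 171, rank 14934 of 27552. V5 was listed no closer than 388 kb, at the promoter of Fopnl. Among the 8 genes with an H3K27ac promoter peak, Snai2 and Tfap2a had scores below the list median of 212.

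Twist1 (chr12:33957671-33959829, plus strand), a basic helix-loop-helix gene of cranial mesenchyme, had the weakest V5 promoter peak of the 3 genes that had 1. This peak (chr12:33957311-33958130) covered the TSS with a score of 43, rank 10389 of 10665. The RNAPOL2 peak had a score of 790, rank 5903 of 20375, and covered 58.8% of the body. The H3K27ac peak was 2870 bp wide, had a score of 1169, rank 4423 of 27552, and covered 85.2% of the body. Both stood in the upper 30% of their lists, while the V5 peak stood among the last 3% of its own. Among genes with a promoter peak, Twist1 stood at 56.2% for RNAPOL2, 38.1% for H3K27ac and 95.6% for V5. The V5 peak at Twist1 was 73.2% G and C, higher than 96.8% of V5 peaks, whose median was 48.0%. It held none of the motifs searched. The 250 bases of its RefSeq promoter before the TSS (chr12:33957421-33957670, plus strand) are shown as the GC-rich promoter that carried it, with no capitals since nothing matched.
Twist1 upstream: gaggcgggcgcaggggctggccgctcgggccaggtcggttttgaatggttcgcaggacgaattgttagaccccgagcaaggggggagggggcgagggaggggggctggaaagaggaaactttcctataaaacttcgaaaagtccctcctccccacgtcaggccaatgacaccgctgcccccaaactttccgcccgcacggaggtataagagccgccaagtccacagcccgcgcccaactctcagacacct
The RefSeq promoter of Twist1 held 27 CpG dinucleotides, against a median of 7 over all promoters.

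Prrx1 (chr1:163245119-163313710, minus strand, 68.6 kb long) encodes a paired-related homeobox factor of limb and facial mesenchyme, and peaks of all 3 lists were spread along it. Its 6 V5 peaks were spread from the promoter to 59.1 kb into the gene. The peak at the promoter (chr1:163311641-163314200) was 2560 bp wide, in the upper 1.14% of V5 peaks by width, with a score of 174. At 14.0 kb into the gene a peak of score 693 was the highest of the 6 (rank 1882 of 10665). At 21.6 kb a peak of score 218 lay 2587 bp from an internal TSS, and was thus also counted as a promoter peak. Intronic peaks at 31.8 kb and 46.3 kb had scores of 153 and 185. The peak at 59.1 kb, over an exon, had a score of 389 (rank 3258). All 6 overlapped RNAPOL2 peaks, and 4 of the 6 overlapped H3K27ac peaks, the exceptions being those at 46.3 kb and 59.1 kb. The peaks at 14.0 kb and 59.1 kb stood above the list median of 230, and the other 4 below it.

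RNAPOL2 at Prrx1 formed 15 peaks with scores from 32 to 642, which together covered 73.9% of the gene body. Broad RNAPOL2 and H3K27ac peaks over Prrx1 also overlapped exons of the annotated genes Gm20471, Gm26523 or Gm37644. Those peaks cannot be assigned to Prrx1 alone. Among the 5007 coding genes of at least 50 kb, the median covered share was 0.427%, and Prrx1 ranked 17. The broadest RNAPOL2 peaks over the gene were 9880 bp, 12020 bp and 11080 bp wide, and each stood in the upper 1% of the list by width. None of the scores reached the upper 30% of the list, and the highest ranked 6818 of 20375. RNAPOL2 at Prrx1 was therefore broad and not high in score, in contrast to Msx1, where a single RNAPOL2 peak of 1520 bp ranked 1251.

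H3K27ac over Prrx1 was concentrated in its 5′ part. The promoter peak (chr1:163304791-163315330) was 10540 bp wide and had a score of 3200, rank 771 of 27552, the highest of the 10 genes. A further 4 peaks in the body had scores of 34, 140, 210 and 226. The 5 peaks covered 30.5% of the body, rank 53 of the 5007 long genes, whose median was 1.25%, and none of them reached beyond 34.0 kb from the 5′ end. RNAPOL2 peaks continued to 70.8 kb, past the annotated end of the gene. Regions in which H3K27ac peaks followed each other within 12 kb were stitched, and a region of at least 3 peaks covered the promoter of 2 of the 10 genes, Prrx1 and Zeb2, against 14.4% of coding genes. Stitching within 5 kb, or a minimum of 5 peaks, left 1 of the 10 genes. The Prrx1 region held 5 peaks over 35.6 kb and 4 of the V5 peaks, and ranked 386 of 2450 such regions by width.

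**Figure D3:**
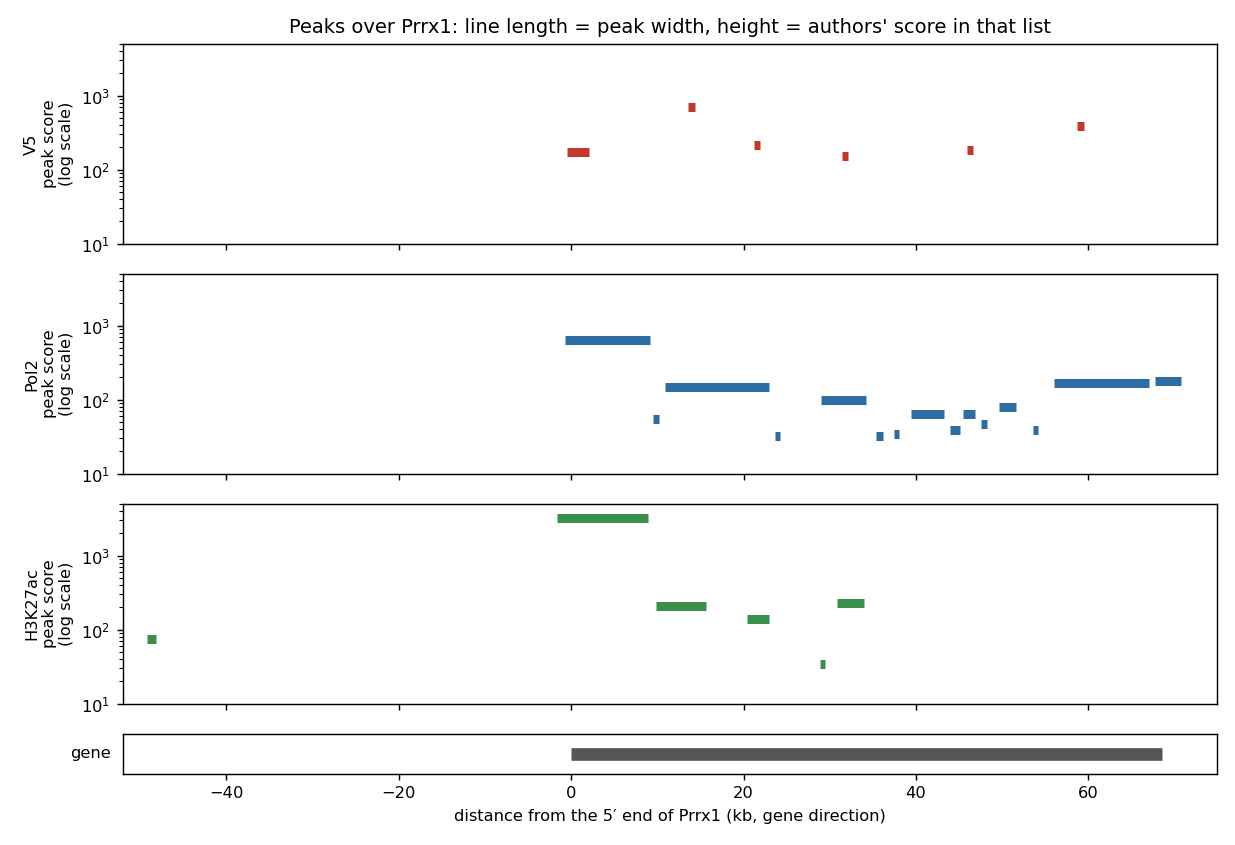
Peaks over Prrx1, with the distance from its 5′ end in kb (horizontal axis) and the score of each peak within its own list on a log scale (vertical axes); the length of each line is the width of the peak. The V5 peaks reached 59.1 kb and the RNAPOL2 (Pol2) peaks 70.8 kb, whereas the H3K27ac peaks in the body ended at 34.0 kb and were highest at the promoter, with a score of 3200.

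V5 peaks at a greater distance stood on both sides of Prrx1. Past its 3′ end, peaks at 66.3 kb and 79.3 kb from the nearest Prrx1 TSS had scores of 784 and 1898 (rank 493 of 10665). Upstream, peaks at -66.5 kb and -69.3 kb from the 5′ end had scores of 292 and 1674 (rank 601), but the nearest coding TSS was that of Gorab, at 23.1 kb and 19.8 kb. All 4 overlapped an H3K27ac peak, and those of score 1898, 1674 and 784 exceeded each of the 6 within 50 kb. Within 100 kb, Prrx1 thus had 10 of the 15 V5 peaks of the 10 genes.

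Sequences under the Prrx1 V5 peaks were mixed. The peak at 46.3 kb held the AP1 motif, a motif of the form TGANNTCA other than TGACGTCA, and a string. The peak at 21.6 kb held AP1 and a TGANNTCA motif, the latter class being present in 40.3% of V5 peaks. The peak at 59.1 kb held 2 copies of TGATGTCA and a string that overlaps 1 of them. No motif was found at the promoter, at 14.0 kb or at 31.8 kb. Stretches of the intronic peaks are shown, with and without a match. They are given on the minus strand, the strand of the gene, with AP1 and TGANNTCA matches in capitals, at chr1:163267166-163267338, chr1:163292102-163292251 and chr1:163299671-163299820. The last is from the highest-scored peak and has no capitals. The stretch at 46.3 kb lies off the middle of its peak, with AP1 at -241 bp and TGANNTCA at -135 bp by plus-strand position. The other stretches include the middle of their peaks, so the stretches are not like parts of their peaks.
Prrx1 at 46.3 kb: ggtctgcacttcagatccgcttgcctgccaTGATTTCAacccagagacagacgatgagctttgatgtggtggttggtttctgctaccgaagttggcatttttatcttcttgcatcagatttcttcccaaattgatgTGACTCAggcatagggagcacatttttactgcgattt
Prrx1 at 21.6 kb: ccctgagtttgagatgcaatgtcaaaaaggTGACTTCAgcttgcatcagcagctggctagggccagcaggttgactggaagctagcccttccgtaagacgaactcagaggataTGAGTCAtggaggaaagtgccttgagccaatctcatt
Prrx1 at 14.0 kb: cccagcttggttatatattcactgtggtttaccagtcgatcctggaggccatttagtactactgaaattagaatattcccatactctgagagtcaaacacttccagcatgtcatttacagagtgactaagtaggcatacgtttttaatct
Over the 9 V5 peaks of Sox9, Twist1 and Prrx1, TGACGTCA was found in 0, which allows a share of up to 33.3%, against 8.51% of all V5 peaks. AP1 was found in 3 of the 9, another TGANNTCA in 3 and a string in 3, and 4 of the 9 held none of these, against 39.0% of all V5 peaks. A match describes letters only, and a peak without a match says nothing of the factor. Of the 9 peaks, 8 overlapped RNAPOL2 (88.9%, Wilson 95% interval 56.5% to 98.0%) against 42.0% of all V5 peaks, and 6 overlapped H3K27ac (66.7%, 35.4% to 87.9%) against 73.4%. The intervals cover counting error only, and 6 of the 9 peaks share 1 gene. When each list was limited to its upper 50% by score, 3 V5 peaks were left and 0 of them overlapped a peak of either other list. Within 100 kb, 10 of 15 V5 peaks overlapped RNAPOL2 (66.7%).

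RNAPOL2 and H3K27ac scores at the genes with V5 overlapped those at the genes without. Ranked over the 11738 genes with an RNAPOL2 promoter peak by their highest score, Msx1 and Sox9 stood in the upper 12.1% and 14.1%, Twist1 at 56.2%, Prrx1 at 64.1%, Snai2 at 69.6%, Zeb1 at 70.4%, Zeb2 at 86.2% and Tfap2a at 98.3%. For H3K27ac, over 12846 genes, the order was Prrx1 (6.89%), Zeb1 (17.7%), Zeb2 (28.5%), Sox9 (28.8%), Twist1 (38.1%), Msx1 (44.3%), Snai2 (88.1%) and Tfap2a (95%). H3K27ac promoter scores ran from 1169 to 3200 at Sox9, Twist1 and Prrx1, and from 91 to 2067 at the 5 genes without V5, so the ranges overlapped. The order of the genes also differed between the antibodies, since Prrx1 led for H3K27ac and Msx1 for RNAPOL2. For V5, over the 3640 genes with a promoter peak, Prrx1 stood at 44.6%, Sox9 at 74.1% and Twist1 at 95.6%. Because there is 1 list per antibody, neighbours in these orders cannot be said to differ.

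**Figure D4:**
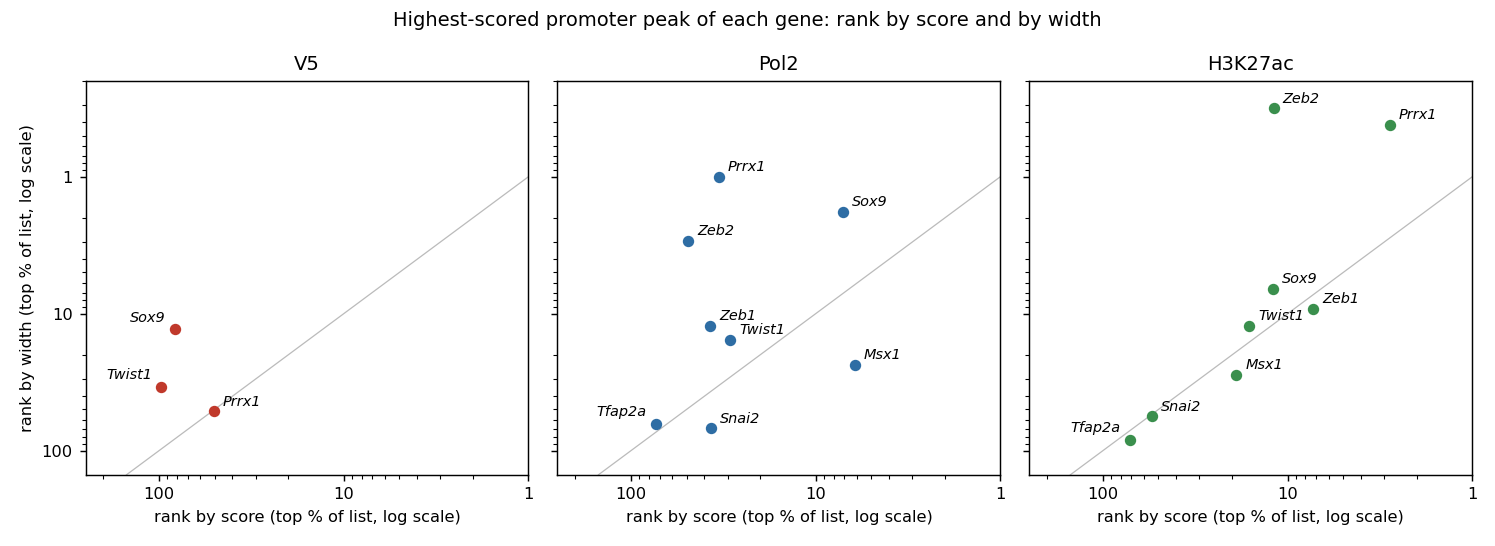
Rank by score (horizontal axis) and by width (vertical axis) of the highest-scored promoter peak of each gene, as the upper percent of its list on log scales, with the highest ranks at the upper right and a grey line where both ranks are equal. Msx1 and Sox9 lie farthest right for RNAPOL2 (Pol2), Prrx1 and Zeb2 lie highest for H3K27ac, and the V5 point of Prrx1 is the peak of score 218 near an internal TSS.

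ZEB1 and ZEB2 are zinc finger and homeobox repressors of epithelial genes, and at both of their genes the highest H3K27ac score was at the start of the gene. Zeb1 (chromosome 18, 5591860 to 5775467, plus strand, 184 kb long) had an H3K27ac promoter peak of score 2067, rank 2010 of 27552, and a second one of score 74 at an internal TSS 12.1 kb downstream. Its RNAPOL2 peak, 2280 bp wide with a score of 529, rank 7606 of 20375, covered 0.932% of the body, rank 1465 of the 5007 genes of at least 50 kb, whose median was 0.427%. No V5 peak was closer than 146 kb to any Zeb1 TSS. The TSSs of the noncoding genes Gm10125 and Gm2238 lie in the same promoter window.

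Zeb2 (chr2:44983632-45117395, minus strand, 134 kb long) had an H3K27ac promoter peak 11410 bp wide, in the upper 0.316% of the list by width and the widest at the 10 genes. Its score was 1520, rank 3273 of 27552. With smaller peaks of scores 101, 57 and 101 it formed the stitched region of 4 peaks over 22.5 kb, which held 0 V5 peaks. RNAPOL2 promoter peaks of Zeb2 had scores of 258 and 249, and another of score 32 lay 132 kb downstream, near the end of the gene. Together they covered 5.78% of the body, rank 276 of the same 5007 genes, compared with 73.9% for Prrx1. The nearest V5 peak, at the TSS of Gtdc1, was 95.4 kb from the closest of the Zeb2 TSSs and 190 kb from the 5′ end. The antisense gene Zeb2os and small RNA genes start within the same window, so the polymerase peaks there cannot be assigned to a strand.

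The 58 related factors, which include paralogues of the 10 genes, were counted in the same way. V5 promoter peaks were listed at 12 of the 58 (20.7%, against 16.6% of coding genes), RNAPOL2 at 26 (44.8%, against 53.5%) and H3K27ac at 33 (56.9%, against 58.6%). The 12 with V5, such as Klf4 (V5 score 921), Tcf4 (277) and Id3 (155), all had promoter peaks in the other 2 lists as well, as did 3484 of the 3640 coding genes with a V5 promoter peak. None of the 3 lists had a promoter peak at 25 of the 58 (43.1%, against 39.9%), among them Sox10, Pax3, Tfap2c and Twist2. The paralogues did not all match their members. Snai1 had an RNAPOL2 promoter score of 4243 and Snai2 of 543, Prrx2 had promoter peaks of RNAPOL2 (223) and H3K27ac (359) without V5, and Msx2 and Twist2 had no promoter peak in any list.

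Genes known as targets of the EMT factors were counted next, to be read beside the shares of all coding genes given above (16.6% for V5, 53.5% for RNAPOL2 and 58.6% for H3K27ac). Of 15 epithelial genes, V5 promoter peaks were listed at 0, RNAPOL2 at 3 (20%; Cldn7, Esrp2 and Rab25) and H3K27ac at 7 (46.7%). The RNAPOL2 promoter peak of Rab25 lay outside its gene body. Cdh1, the E-cadherin gene repressed by SNAI2, ZEB1 and ZEB2, had an H3K27ac promoter peak of score 74 and no RNAPOL2 promoter peak. Of 15 mesenchymal genes, V5 promoter peaks were listed at 2 (13.3%; Fn1 and Vim), RNAPOL2 at 10 (66.7%) and H3K27ac at 12 (80%). Marker genes of other cells that a tumour could hold were counted against the same shares. RNAPOL2 promoter peaks were present at 2 of 12 skeletal muscle genes, 2 of 8 leukocyte genes, 4 of 8 endothelial genes and 0 of 8 epithelial genes. H3K27ac promoter peaks were present at 1, 6, 6 and 5 of the same lists. The muscle gene with promoter peaks of both RNAPOL2 and H3K27ac was Actn3, and both lay outside its gene body. Of the 6 leukocyte genes with H3K27ac, Cd68 and Spi1 also had RNAPOL2 promoter peaks, Csf1r and Laptm5 had RNAPOL2 peaks in the body alone, and Cd3e and Ptprc had neither. Of the 6 endothelial genes with H3K27ac, Erg, Kdr, Sox17 and Sox18 also had RNAPOL2 promoter peaks, Pecam1 had RNAPOL2 in the body alone, and Cdh5 had neither. The part of such cells in the RNAPOL2 and H3K27ac peaks of the 10 genes was not tested.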

How the data were processed

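The authors performed ChIP-seq on mouse EA1 tumours. Per the labels and the study's methods, reads were aligned to mm10 with BWA-MEM, duplicates were removed, peaks were called with MACS2 against input (broad option for H3K27ac), and denylisted regions were discarded. The submitters' processing notes give BWA 0.7.10-r789 and MACS2 2.2.6. The deposited lists give each peak a start, an end and a whole-number score set by the authors. The scale of the score, the samples that entered each peak list and the pooling of replicates for it are not given in the sources used here. The methods describe averaging of replicates for the signal tracks only, with a normalization for depth. The methods name more V5 and RNAPOL2 samples than the labels do. No list of the input samples was used.

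Genes and 141730 transcripts came from GENCODE vM21 for GRCm38. Peaks that shared at least 1 bp with a window were counted, positions are 1-based, and distances are from the middle of a peak to the 5′ end of the gene for peaks placed in or around a gene. The distance to a nearest peak is the gap from its edge to the nearest annotated TSS of the gene, which for a long gene can lie far from the 5′ end. Motifs were searched on both strands. Promoter sequences in the table of 32851 came from RefSeq (GRCm38.p6). The sequences printed were read from GRCm38, and those before the Foxd3 and Twist1 TSSs equal the RefSeq promoters. The computations used Python 3.11.15, numpy 2.4.6, pandas 2.3.3, scipy 1.17.1, statsmodels 0.14.6 and matplotlib 3.10.9, and the functions were tested on simulated data. No test between groups was run, since each antibody has 1 list.

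The members and the gene lists were chosen with earlier results of these data known. For each member, the V5 peaks within 50 kb (the 5 highest by score where there were more), the highest promoter peak of each list and the nearest peak where none existed were to be named. The sixth V5 peak of Prrx1, the peaks beyond 50 kb, the other RNAPOL2 and H3K27ac peaks and the named genes of the related lists were chosen after their values were seen. The count over the melanocyte and Schwann cell markers is not reported here.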

Additional observations from a re-analysis of the deposited data

How the results depend on the processing

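Of 81 values recomputed with another setting, 54 stayed close to the reported value and 27 moved. The rule for close was wide: a count within a fixed factor of the reported count, or a share inside the Wilson interval of the reported share. Thus 6 V5 peaks within 20 kb, against 9 within 50 kb, were called close. So was the RNAPOL2 overlap of 66.7% within 100 kb, against 88.9%. The number of genes with promoter peaks stayed at 3 for V5 and at 8 for RNAPOL2 and H3K27ac with windows of 1 kb or 5 kb, with TSSs of coding transcripts alone, and with the middle base of the peak. With the 5′ end of each gene alone, an alternative chosen after seeing the data, RNAPOL2 and H3K27ac promoter peaks were at 7 genes. With the upper 50% of each list by score, V5 promoter peaks were at 0 genes and peaks of all 3 lists at 0, the peaks within 50 kb were 3 for V5, 9 for RNAPOL2 and 7 for H3K27ac, those in gene bodies were 2, 9 and 7, the 3 V5 peaks overlapped RNAPOL2 in 0% and H3K27ac in 0%, AP1 was held by 0 and another TGANNTCA by 1, and 0 genes lay in a stitched region. With the upper 20%, promoter peaks were at 0 genes for V5, 2 for RNAPOL2 and 0 for all 3 lists. Within 20 kb, the V5 peaks overlapped RNAPOL2 in 100% and H3K27ac in 100% (6 of 6), another TGANNTCA was held by 1 and a string by 0. Within 100 kb there were 15 V5 peaks and 29 H3K27ac peaks, 66.7% of the V5 peaks overlapped RNAPOL2, AP1 was held by 7 and another TGANNTCA by 6. Stitching within 5 kb left 1 gene in a region, and so did a minimum of 5 peaks. Counting strings of 1 unit alone, also chosen after seeing the data, gave 1 peak, and strings of at least 4 units with gaps of at most 2 bp, chosen likewise, gave 2. The upper shares hold fewer peaks and the distances more or fewer sites by construction. The lists hold no depth per sample, and a peak that is not listed may lie under the authors' threshold. No paired analysis was possible because each antibody has 1 list without values per sample.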
